A study of Mus musculus with 12 samples.

Results

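The mRNA levels of 10 genes of the AP-1 transcription factors and the immediate early response to growth and stress signals were followed in C2C12 cells depleted of Keap1, of Ccnf or of both. The genes were Fos, Fosb, Fosl1 and Fosl2 of the FOS family, Jun, Junb and Jund of the JUN family, and Atf3, Egr1 and Ier3. They were chosen by name from the 54532 genes of the deposited table, and all 10 were among the 15122 genes with enough counts to be tested. C2C12 cells are mouse myoblasts, a muscle precursor line that differentiates into multinucleated myotubes once serum is lowered. Cells grown in DMEM with 5% FBS, by the labels, were treated for 48 h with siRNA at 30 nM: siCONTROL, which is the control, siKEAP1 to deplete Keap1, siCCNF to deplete Ccnf, or the combination, named siKEAP1/siCCNF. Each of the 4 groups had 3 libraries of poly(A)-selected RNA, which the titles call biological replicates. The cells carried no engineered allele, and every group, siCONTROL included, was transfected with siRNA. All groups come from 1 cell line and the depletions were partial, so they describe reduced rather than absent Keap1 and Ccnf mRNA.

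AP-1 is a pair of proteins joined through leucine zippers. JUN proteins can pair with each other or with a FOS protein, whereas FOS proteins need a JUN partner, and the pair binds a short DNA element in the control regions of genes for growth, invasion and inflammation. FOS, FOSB, JUN, JUNB, EGR1 and IER3 are induced by serum and growth factors through MAP kinases without new protein synthesis, while FOSL1 and FOSL2 lack the strong activation domain of FOS and follow later. In myoblasts, JUN and FOS are known to oppose MyoD and the exit from the cell cycle. KEAP1 is the adaptor of a ubiquitin ligase that holds the stress factor NRF2 low, and cyclin F, the product of Ccnf, is the substrate receptor of an SCF ubiquitin ligase.

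The genomic sequence next to 2 of these genes is shown because Jun was the member that fell most and Fos the member that moved in opposite directions after the single depletions. Each run holds the 250 bases before the start of transcription, 5′ to 3′ on the gene's own strand, from RefSeq on GRCm38.p6, with matches to the motifs named next in capitals. The Jun sequence spans chr4:95052223-95052472 on the minus strand and the Fos sequence spans chr12:85473640-85473889 on the plus strand.
Jun: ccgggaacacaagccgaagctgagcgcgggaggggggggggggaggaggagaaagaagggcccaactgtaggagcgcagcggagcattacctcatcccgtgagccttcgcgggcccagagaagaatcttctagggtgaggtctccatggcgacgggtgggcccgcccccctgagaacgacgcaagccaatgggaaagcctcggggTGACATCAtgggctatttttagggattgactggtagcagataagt
Fos: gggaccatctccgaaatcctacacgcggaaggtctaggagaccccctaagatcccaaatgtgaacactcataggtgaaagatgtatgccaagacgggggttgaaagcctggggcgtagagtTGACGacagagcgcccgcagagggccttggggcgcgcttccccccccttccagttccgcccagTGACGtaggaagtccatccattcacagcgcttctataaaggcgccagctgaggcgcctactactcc
The capitals in Jun mark TGACATCA, the variant AP-1 element known as the jun1 site, from -45 to -38 relative to the start. In Fos they mark TGACG, the half-site of the cyclic AMP response element (CRE), at -129 to -125 and at -66 to -62. On either strand, the jun1 site was present in 2.93% of the 32851 RefSeq windows of the same length and the half-site in 17.8%. RefSeq windows were matched for 8 of the 10 genes, all but Fosl1 and Egr1. Among the other 6, Fosb held a half-site at -60 to -56, Junb a half-site at -106 to -102, Atf3 the ATF site TTACGTCA at -10 to -3, which contains a half-site, and Fosl2 the E2F site TTTGGCGC at -206 to -199. The shares of all windows were 0.447% for the ATF site and 1.53% for the E2F site, which was searched as TTTGGCGC, TTTCGCGC or TTTCCCGC. Neither Ier3 nor Jund held a match. Of the 8 windows, only those of Fos and Jun adjoin the gene start in the deposited table. The start differs most for Atf3, whose window spans chr1:191183334-191183583 on the minus strand. In the deposited table this gene begins at 191218039. The canonical AP-1 element TGACTCA, the full CRE TGACGTCA, the core TGACNNNGC of the antioxidant response element and the CArG box were found in none of the 8 windows, against 4.46%, 1.55%, 10.2% and 1.47% of all windows. Only the motifs named here were searched, so any other AP-1-like element stays in lower case. These matches describe the letters in these windows only.

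Library totals lay between 18464209 and 37743198 counts. Keap1 fell to 14.4% of its siCONTROL level after siKEAP1 and to 27.5% after siKEAP1/siCCNF, and Ccnf fell to 25.3% after siCCNF and to 30.2% after siKEAP1/siCCNF, so the double depletion kept more Keap1 mRNA than siKEAP1 alone. Ccnf was also lower after siKEAP1 (log2 fold change -0.45, adjusted p = 2.58e-04). All 6 myoblast markers (Myod1, Myf5, Des, Cdh15, Itga7 and Pax7) were expressed at 1 FPKM (fragments scaled by gene length and library size) or more in each group, and all 6 were lower than in siCONTROL in each depletion. Their summed FPKM was 393 to 471 in siCONTROL, 217 to 226 after siKEAP1, 173 to 177 after siCCNF and 168 to 195 after siKEAP1/siCCNF. The summed FPKM of 8 myotube markers was 37.3 to 90.5 in siCONTROL, 2.71 to 3.46 after siKEAP1, 11.3 to 16.7 after siCCNF and 5.19 to 5.75 after siKEAP1/siCCNF. Of 8 markers of other cell types only Cd68 reached 1 FPKM in any group, with 5.82 FPKM after siKEAP1, and Alb was at 0 throughout. The counts of siCONTROL replicate 1 and siKEAP1/siCCNF replicate 3 followed gene length unlike the other libraries (correlation of the deviation with log length across genes -0.305 and -0.276, against -0.0944 to 0.206). The deviation was taken from the mean of the library's own group, so the values of libraries in the same group are not independent. The part of the muscle markers or of this length trend in the changes described next was not tested, beyond leaving both libraries out. RNA from a whole culture cannot tell fewer expressing cells from less RNA per cell.

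After siKEAP1, 3 of the 10 genes rose (Fosl1, Fosl2 and Ier3) and 3 fell (Fos, Jun and Egr1) at an adjusted p under 0.05 by edgeR's quasi-likelihood test, adjusted over all genes tested (Benjamini-Hochberg). Of all genes tested, 20.4% rose and 20.2% fell. After siCCNF, 4 rose (Fos, Fosb, Fosl2 and Ier3) and 3 fell (Jun, Jund and Egr1), against 22.5% and 25.5% of all genes. After siKEAP1/siCCNF, 5 rose (Fos, Fosb, Fosl1, Fosl2 and Ier3) and the same 3 fell as after siCCNF, against 20.6% and 23.6%. Counts over 10 genes at these background rates describe the members and say nothing of the group as such. With a change of over 2-fold also required, Fosl1 and Egr1 were called after siKEAP1, Jun after siCCNF, and Fosb and Jun after siKEAP1/siCCNF, where 11.5%, 11.4% and 10.3% of all genes passed. The median log2 fold change of the 10 genes was 0.07, 0.31 and 0.55 in these 3 comparisons, and that of all genes tested was -0.012, 0.013 and 0.014. The groups of 3 libraries did not overlap for 7, 6 and 8 of the 10 genes, against 51.5%, 56.4% and 48.4% of all genes. The 3 comparisons share the siCONTROL libraries.

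**Figure D1:**
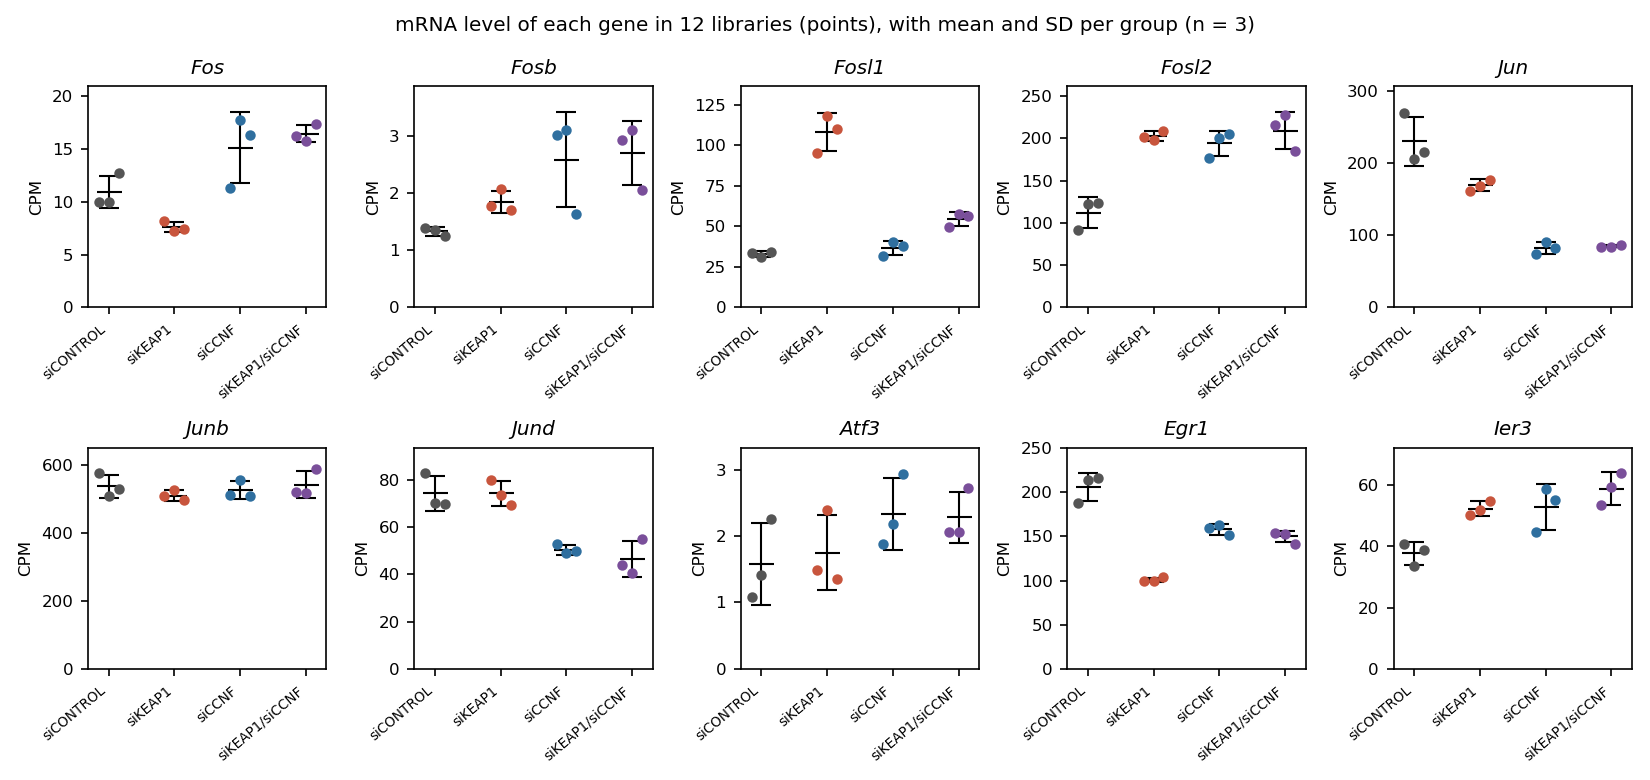
Level of each of the 10 genes in CPM, library-scaled counts, with the y axis from 0, in the 12 libraries, by siRNA group (x axis). Points are libraries, the long line is the mean and the bars are the SD (n = 3). Fosl1 stands highest in the siKEAP1 libraries (94.9 to 118 CPM), Jun lowest in the siCCNF and siKEAP1/siCCNF libraries (74.5 to 90.0 CPM), and Junb lies between 496 and 588 CPM in every library.

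Fosl1 encodes FRA-1, the FOS protein most often linked to migration and invasion. It lies on chromosome 19 from 5447703 to 5455945 in the GRCm38 coordinates of the table (ENSMUSG00000024912). Its level, in CPM after TMM scaling for library composition, was 33.8, 30.8 and 34.0 in siCONTROL, 94.9, 118 and 110 after siKEAP1, 32.0, 40.2 and 38.0 after siCCNF, and 49.5, 57.6 and 56.3 with siKEAP1/siCCNF. The siCONTROL and siCCNF libraries overlapped, the siKEAP1/siCCNF libraries lay above both, and the siKEAP1 libraries lay above all others. Fosl1 rose 3.27-fold after siKEAP1 (log2 fold change 1.71, SE 0.105, adjusted p = 5.12e-08) and 1.66-fold after siKEAP1/siCCNF (0.73, SE 0.104, adjusted p = 8.47e-05). After siCCNF the difference was 0.16 on the log2 scale (95% interval -0.07 to 0.38, adjusted p = 0.228). It was the only one of the 10 genes that differed between siKEAP1/siCCNF and siCCNF at the threshold (0.57, SE 0.102, adjusted p = 0.00596).

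Fosl2, which encodes FRA-2, a FOS protein that also lacks a strong activation domain, was higher in all 3 depletions. The gene (chromosome 5, 32135801 to 32157842) measured 91.0, 122 and 124 CPM in siCONTROL, 201, 198 and 209 after siKEAP1, 177, 200 and 205 after siCCNF, and 216, 227 and 185 with siKEAP1/siCCNF. Every depleted library lay above every siCONTROL library, and the 3 depleted groups overlapped one another. The rises were 1.80-fold after siKEAP1 (adjusted p = 5.18e-05), 1.72-fold after siCCNF (adjusted p = 8.16e-05) and 1.86-fold after siKEAP1/siCCNF (adjusted p = 2.98e-05). The lowest siCONTROL value and the lowest siKEAP1/siCCNF value came from the libraries whose counts followed gene length, and without both of them the log2 rises were 0.71, 0.65 and 0.84, against 0.85, 0.78 and 0.90 with them.

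Fos, the founding member of the family and a classic gene of the serum response, went in opposite directions after the single depletions. The gene (chromosome 12, 85473890 to 85477273) measured 10, 10 and 12.7 CPM in siCONTROL, 8.13, 7.25 and 7.37 after siKEAP1, 11.3, 17.7 and 16.3 after siCCNF, and 16.2, 15.7 and 17.3 with siKEAP1/siCCNF. Only the siKEAP1 libraries were below all siCONTROL libraries, and siCCNF replicate 1 fell within the siCONTROL range. Fos fell by 0.53 on the log2 scale after siKEAP1 (SE 0.160, adjusted p = 0.018) and rose by 0.46 after siCCNF (SE 0.152, adjusted p = 0.0225) and by 0.58 after siKEAP1/siCCNF (SE 0.153, adjusted p = 0.00707). Both single-depletion calls were lost when 1 library was left out. For siKEAP1 this held without siCONTROL replicate 3 (-0.41, adjusted p = 0.0713), siKEAP1 replicate 2 (-0.50, adjusted p = 0.0569) or siKEAP1 replicate 3 (-0.51, adjusted p = 0.0548). For siCCNF it held without siCONTROL replicate 1 (0.40, adjusted p = 0.062), siCONTROL replicate 2 (0.41, adjusted p = 0.0738), siCCNF replicate 2 (0.35, adjusted p = 0.0961) or siCCNF replicate 3 (0.41, adjusted p = 0.078). It was also lost when only the 6 siCONTROL and siCCNF libraries were fitted (0.47, adjusted p = 0.0687).

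Fosb, a close relative of Fos known from neurons, was scarce, with 25 to 106 counts per library. Its level was 1.39, 1.36 and 1.25 CPM in siCONTROL, 1.77, 2.07 and 1.71 after siKEAP1, 3.02, 3.11 and 1.64 after siCCNF, and 2.94, 3.11 and 2.06 with siKEAP1/siCCNF. All 9 depleted libraries were above siCONTROL, with 1 low library in the siCCNF group. Fosb rose 1.93-fold after siCCNF (adjusted p = 0.0108) and 2.04-fold after siKEAP1/siCCNF (adjusted p = 0.00748), whereas the difference after siKEAP1 (log2 fold change 0.47, 95% interval -0.14 to 1.08) did not pass.

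Jun encodes c-JUN, the JUN protein with the strongest transactivating activity. The gene (chromosome 4, 95049034 to 95052222, minus strand) measured 269, 206 and 215 CPM in siCONTROL, 161, 168 and 177 after siKEAP1, 74.5, 90.0 and 82.3 after siCCNF, and 84.2, 83.9 and 86.9 with siKEAP1/siCCNF. The 4 groups were ordered siCONTROL, siKEAP1 and then both CCNF-depleted groups, which overlapped each other and no other group. Jun dropped to 0.733 of its siCONTROL level after siKEAP1 (log2 fold change -0.45, SE 0.0969, adjusted p = 0.0023), to 0.358 after siCCNF (-1.48, SE 0.0990, adjusted p = 1.01e-07) and to 0.369 after siKEAP1/siCCNF (-1.44, SE 0.0990, adjusted p = 1.67e-07). The highest library was siCONTROL replicate 1, and without it and siKEAP1/siCCNF replicate 3 the log2 changes were -0.33, -1.36 and -1.33. An antisense gene, Junos, overlaps Jun over 689 bases and had 697 counts in the 12 libraries against 40730 for Jun.

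Jund, whose product JUND is abundant in resting cells and slows proliferation, measured 83.0, 70.4 and 69.8 CPM in siCONTROL and 79.8, 73.8 and 69.3 after siKEAP1. It measured 52.9, 48.9 and 49.8 after siCCNF and 43.8, 40.8 and 55.1 after siKEAP1/siCCNF. The first pair of groups overlapped, as did the second pair, with a gap between the pairs. Jund fell by 0.56 on the log2 scale after siCCNF (SE 0.107, adjusted p = 8.33e-04) and by 0.68 after siKEAP1/siCCNF (SE 0.108, adjusted p = 2.09e-04). After siKEAP1 the difference had a 95% interval of -0.23 to 0.23.

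Junb, a JUN protein that can restrain JUN and that promotes muscle growth, was the most abundant of the 10 by FPKM and passed the test in none of the 6 comparisons as fitted, although it passed between siKEAP1/siCCNF and siKEAP1 once the gene length trend was removed (log2 difference 0.14, adjusted p = 0.047). Its libraries ranged from 509 to 576 CPM in siCONTROL, 496 to 527 after siKEAP1, 510 to 556 after siCCNF and 517 to 588 after siKEAP1/siCCNF. All groups overlapped. The 95% intervals of the log2 fold change were -0.23 to 0.08, -0.19 to 0.12 and -0.14 to 0.17 in that order of depletions. Junb overlaps Prdx2 on the opposite strand over 351 bases, Prdx2 had 250902 counts against 163042 for Junb, and whether reads were counted by strand is not stated, so reads of these 2 genes cannot be told apart there.

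Egr1 encodes a zinc finger factor of the serum response and belongs to neither AP-1 family. It measured 188, 214 and 216 CPM in siCONTROL, 100, 100 and 104 after siKEAP1, 160, 163 and 152 after siCCNF, and 154, 153 and 142 with siKEAP1/siCCNF. The siKEAP1 libraries were lowest, the siCCNF and siKEAP1/siCCNF libraries overlapped, and siCONTROL was above all. Egr1 fell to 0.493 of its siCONTROL level after siKEAP1 (log2 fold change -1.02, SE 0.0670, adjusted p = 9.75e-08), to 0.770 after siCCNF (adjusted p = 4.01e-04) and to 0.727 after siKEAP1/siCCNF (adjusted p = 9.16e-05). Fos fell with it after siKEAP1, but both Fos and Fosb were higher where Egr1 was lower in the other depletions.

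Ier3, an early gene whose product affects survival and ERK signalling, measured 40.6, 33.6 and 38.7 CPM in siCONTROL, 50.0, 51.8 and 54.6 after siKEAP1, 44.5, 58.6 and 55.1 after siCCNF, and 53.2, 59.1 and 63.8 with siKEAP1/siCCNF. Every depleted library was above siCONTROL and the depleted groups overlapped. The rises on the log2 scale were 0.47 after siKEAP1 (adjusted p = 0.00356), 0.49 after siCCNF (adjusted p = 0.00235) and 0.64 after siKEAP1/siCCNF (adjusted p = 3.36e-04).

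Atf3, the stress-induced ATF family partner of JUN proteins, was near the lower end of what could be tested, with 24 to 109 counts per library. It measured 1.08, 1.41 and 2.26 CPM in siCONTROL, 1.49, 2.39 and 1.36 after siKEAP1, 1.88, 2.18 and 2.93 after siCCNF, and 2.06, 2.06 and 2.72 with siKEAP1/siCCNF. The groups overlapped throughout and no comparison passed. The 95% intervals of its log2 fold change were -0.54 to 0.84, -0.10 to 1.22 and -0.15 to 1.19, so at this depth no change and a 2-fold rise after siCCNF could not be told apart. Without siCONTROL replicate 3, the highest of its group, the difference passed after siCCNF (0.92, adjusted p = 0.0352) and after siKEAP1/siCCNF (0.87, adjusted p = 0.0495).

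**Figure D2:**
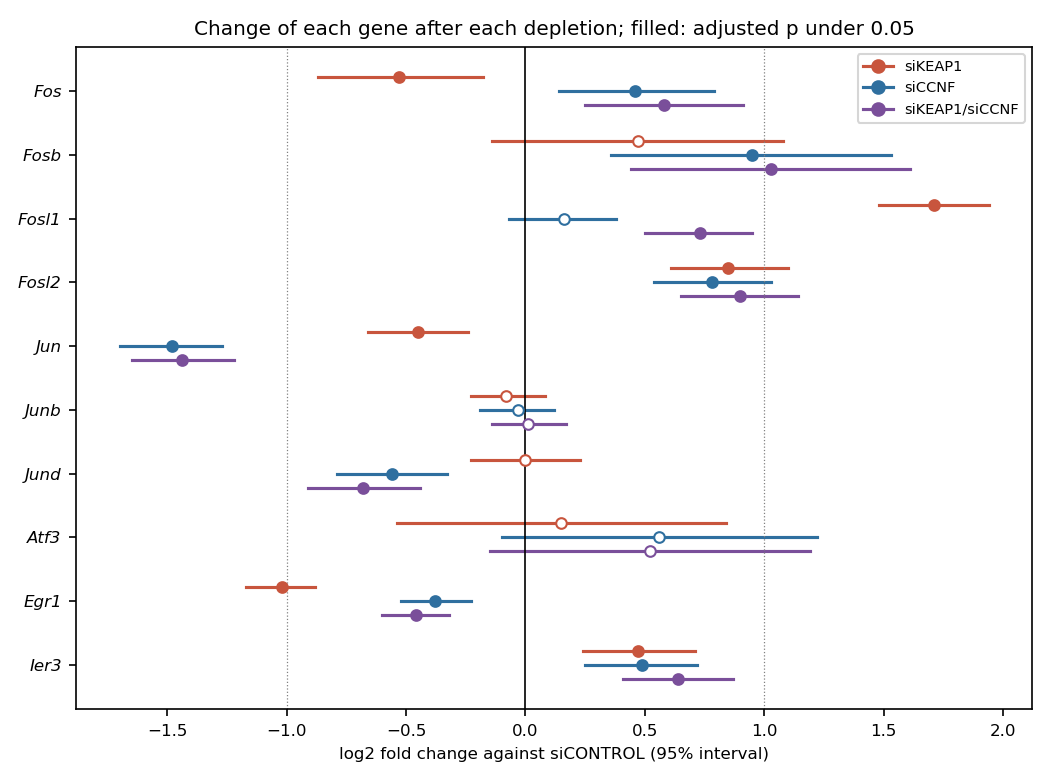
Log2 fold change against siCONTROL (x axis) of each gene (y axis) after siKEAP1, siCCNF and siKEAP1/siCCNF. Points are edgeR estimates from 3 libraries per group, lines are 95% intervals, filled points have an adjusted p under 0.05 and dotted lines mark 2-fold. The largest rise is Fosl1 after siKEAP1 (1.71) and the largest fall Jun after siCCNF (-1.48), while the 3 Junb intervals all include 0.

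Adding CCNF depletion to KEAP1 depletion left 2 of the 10 genes higher (Fos and Egr1) and 3 lower (Fosl1, Jun and Jund) than after siKEAP1 alone, where 24.1% and 26.9% of all genes were higher and lower. Fos differed 2.16-fold (log2 difference 1.11, SE 0.156, adjusted p = 5.76e-05) and Egr1 by 1.47-fold (adjusted p = 1.40e-05). Fosl1 was 0.506 of its siKEAP1 level (adjusted p = 4.05e-06), Jun 0.504 (adjusted p = 2.86e-06) and Jund 0.626 (adjusted p = 1.71e-04). The double depletion also held more Keap1 mRNA than siKEAP1 alone, and its part in these differences was not tested. The count of higher genes was 5 with the gene length trend removed, where Fosb (0.67, adjusted p = 0.036), Fosl2 (0.18, adjusted p = 0.0165) and Junb (0.14, adjusted p = 0.047) also passed, and 4 with both libraries left out, where Fosb (0.71, adjusted p = 0.0325) and Fosl2 (0.13, adjusted p = 0.0424) did. No share of all genes was taken under these settings. The siKEAP1 and siKEAP1/siCCNF libraries did not overlap for 5 of the 10 genes, against 60.9% of all genes. Adding KEAP1 depletion to CCNF depletion left 1 gene higher, Fosl1, and 0 lower, against 3.00% and 2.19% of all genes, and only Fosl1 had groups that did not overlap, against 25.8%. For the other 9 genes the log2 difference between siKEAP1/siCCNF and siCCNF lay between -0.12 and 0.15.

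The interaction asks whether siKEAP1 had the same effect in CCNF-depleted cells as in control cells. It passed for 4 of the 10 genes, 2 with a positive and 2 with a negative value, against 10.6% and 10.5% of all genes. The effect of siKEAP1 on Fosl1 was smaller by 1.14 on the log2 scale in CCNF-depleted cells (1.71 without and 0.57 with siCCNF, adjusted p = 1.42e-04). That on Fosl2 was smaller by 0.74, from 0.85 to 0.11 (interaction -0.74, SE 0.158, adjusted p = 0.00501). The falls of Egr1 (-1.02 without and -0.08 with siCCNF, interaction 0.94, adjusted p = 2.67e-05) and of Jun (-0.45 and 0.05, interaction 0.50, adjusted p = 0.0213) were also smaller in CCNF-depleted cells. The Jun call was lost without siKEAP1 replicate 1 (adjusted p = 0.0545) or siCCNF replicate 1 (adjusted p = 0.0527). For Fos the interaction was 0.65 (SE 0.217, adjusted p = 0.0511), just outside the threshold.

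**Figure D3:**
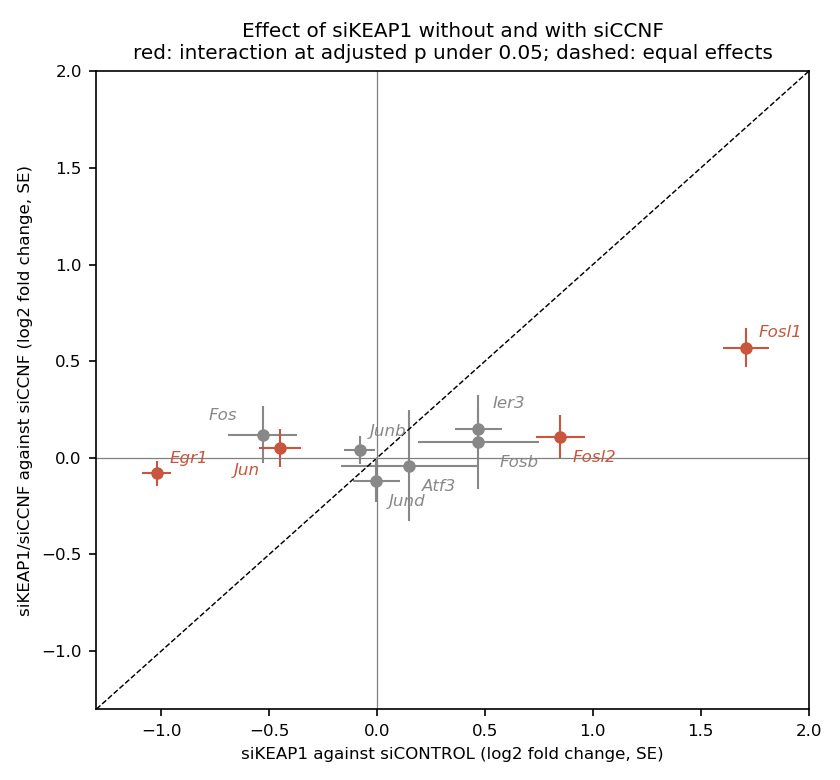
Log2 effect of siKEAP1 in control cells (siKEAP1 against siCONTROL, x axis) and in CCNF-depleted cells (siKEAP1/siCCNF against siCCNF, y axis) for the 10 genes. Points are edgeR estimates, bars are SE, the dashed line marks equal effects and red marks an interaction with an adjusted p under 0.05. Only Fosl1 (1.71 and 0.57) stands well above 0 on the y axis, and Egr1, Jun, Fosl1 and Fosl2 in red lie off the dashed line.

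Levels of different genes were compared per length, in the deposited FPKM. The FOS family summed to 35.5 ± 2.26 FPKM in siCONTROL (SD, n = 3), 87.2 ± 6.56 after siKEAP1, 47.9 ± 5.09 after siCCNF and 60.5 ± 2.84 with siKEAP1/siCCNF. Fosl1 made up 54.0% ± 4.14 of that sum in siCONTROL, 71.9% ± 2.43 after siKEAP1, 44.5% ± 0.587 after siCCNF and 52.3% ± 2.89 with siKEAP1/siCCNF. Fosl2 made up 32.4% ± 4.11, 24.0% ± 1.93, 41.5% ± 1.81 and 35.5% ± 3.15, so together Fosl1 and Fosl2 outweighed Fos and Fosb in every group. The share of Fos was 13.0% in siCONTROL and 3.71% after siKEAP1.

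The JUN family summed to 348 ± 29.7, 318 ± 6.48, 282 ± 12 and 288 ± 23.2 FPKM in the same order. Junb held 66.8% ± 1.47 of the JUN sum in siCONTROL and 80.3% ± 0.429 after siCCNF, while Jun went from 20.5% ± 1.27 to 9.05% ± 0.556. The ratio of JUN to FOS family FPKM was 9.86 ± 1.35 in siCONTROL, 3.66 ± 0.277 after siKEAP1, 5.93 ± 0.564 after siCCNF and 4.78 ± 0.505 with siKEAP1/siCCNF. The siCONTROL libraries (8.85 to 11.4) were all above the depleted ones (3.49 to 6.56). The JUN sums, shares and ratios all include Junb, whose reads cannot be told apart from those of Prdx2 where these genes overlap. These are mRNA ratios and do not measure protein or dimers.

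**Figure D4:**
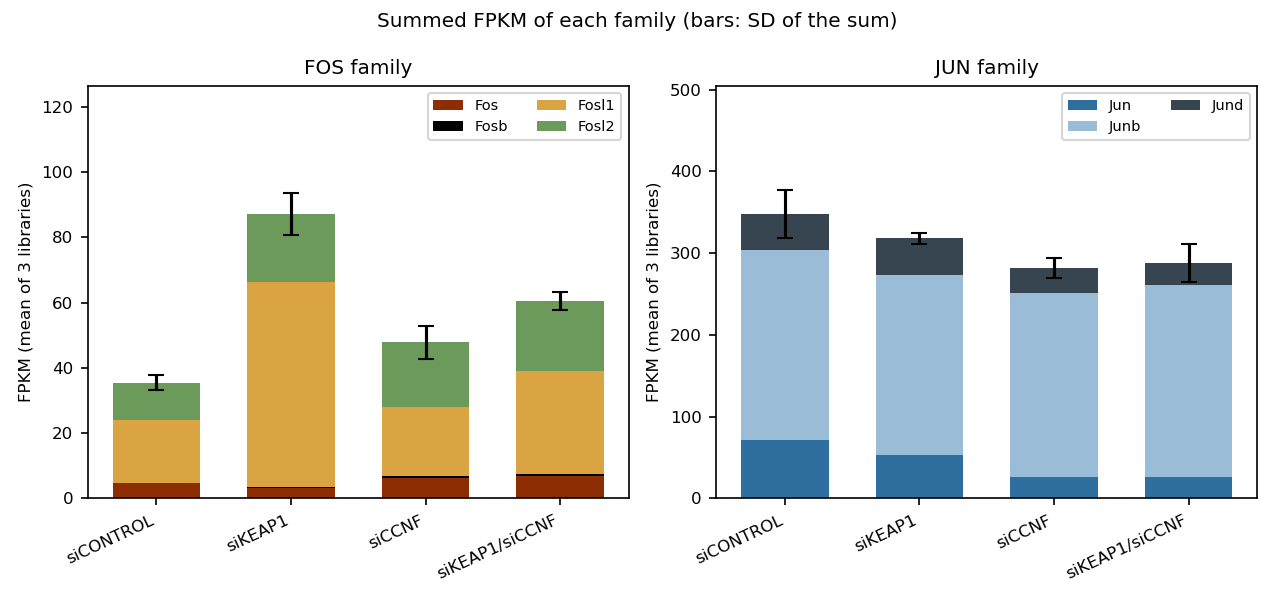
Summed FPKM (y axis, from 0) of the FOS family (left) and JUN family (right) in the 4 groups (x axis), with each gene's mean as a coloured segment and the SD of the sum as a bar (n = 3 libraries). The FOS sum is highest after siKEAP1 (87.2), mostly through Fosl1, and Junb is the largest segment of every JUN bar.

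Related genes were taken from lists of common knowledge, and their counts stand beside the shares of all genes tested that rose and fell, which were 20.4% and 20.2% after siKEAP1, 22.5% and 25.5% after siCCNF, and 20.6% and 23.6% for both siRNAs. The medians over all genes were -0.012, 0.013 and 0.014. Of 19 other bZIP genes, a class of leucine zipper proteins of which some pair with AP-1 proteins, 7 rose and 5 fell after siKEAP1, 8 and 6 after siCCNF, and 8 and 7 with siKEAP1/siCCNF (medians 0.05, 0.12 and 0.11 on the log2 scale). Maff, a small MAF protein that partners NRF2, rose after siKEAP1 from 12.8 ± 0.137 to 27.6 ± 1.48 CPM (log2 fold change 1.11, adjusted p = 2.14e-04) and fell after siCCNF to 8.02 ± 2.52. Jdp2, a repressor that dimerizes with JUN, fell after siKEAP1 from 141 ± 13.8 to 64.1 ± 5.11 CPM (-1.14, adjusted p = 5.06e-07). It also fell after siCCNF (-0.52, adjusted p = 3.26e-04) and after siKEAP1/siCCNF (-0.91, adjusted p = 3.49e-06). Cebpd rose from 25.6 ± 0.931 to 67.0 ± 6.37 CPM after siCCNF (1.39, adjusted p = 1.31e-07), and Creb1, whose product binds the CRE, fell from 88.6 ± 12.7 to 39.7 ± 2.85 CPM (-1.16, adjusted p = 1.81e-06). After siKEAP1/siCCNF Cebpd was also higher (1.13, adjusted p = 9.53e-07) and Creb1 lower (-1.02, adjusted p = 6.41e-06).

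Of 48 other immediate early genes tested, of 49 listed, and against the same shares of all genes, 22 rose and 8 fell after siKEAP1, 24 and 11 after siCCNF, and 25 and 11 with siKEAP1/siCCNF (medians 0.12, 0.25 and 0.32). Ptgs2, which encodes the inducible cyclooxygenase COX-2, rose in all 3, from 44.7 ± 7.81 CPM in siCONTROL to 161 ± 23.1, 113 ± 20.2 and 131 ± 25.8. Ctgf, a matrix gene under YAP and serum response factor, went from 10.2 ± 0.200 CPM to 3.40 ± 0.378 after siKEAP1 (-1.59, adjusted p = 1.09e-05) and to 24.5 ± 5.95 after siCCNF (1.26, adjusted p = 1.90e-05). Klf2 and Klf4, Krüppel-like factors of the early response, fell after siCCNF (-2.46, adjusted p = 8.31e-08, and -1.32, adjusted p = 9.98e-08). Early genes outside the 10 thus moved in both directions, as the members did.

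Upstream of the early genes lie the MAP kinases. Of 31 genes of the cascade and its transcription factors, 9 rose and 5 fell after siKEAP1 (all genes 20.4% and 20.2%), 2 and 13 after siCCNF (22.5% and 25.5%), and 2 and 14 with siKEAP1/siCCNF (20.6% and 23.6%; medians 0.11, -0.11 and -0.18). Rps6ka3, the ERK-activated kinase RSK2, fell after siCCNF from 79.3 ± 13.7 to 18.7 ± 0.179 CPM (-2.08, adjusted p = 1.00e-07). Map2k3, a kinase of the p38 branch, fell from 187 ± 24.1 to 64.8 ± 0.750 CPM after siCCNF (-1.53, adjusted p = 3.28e-08). After siKEAP1/siCCNF it fell to 76.9 ± 6.56 CPM (-1.28, adjusted p = 1.57e-07). After siKEAP1 alone Map2k3 was higher (0.29, adjusted p = 0.0161). Mapkapk3 also rose after siKEAP1, from 1.85 ± 0.339 to 7.42 ± 1.87 CPM (1.99, adjusted p = 1.73e-05). Rps6ka1 rose after siKEAP1 (1.12, adjusted p = 2.37e-06) and fell after siCCNF (-1.71, adjusted p = 1.46e-07). Of 14 genes that ERK induces and that read out or restrain it, 9 rose and 2 fell after siKEAP1, 3 and 8 after siCCNF, and 1 and 8 with siKEAP1/siCCNF, against the shares just given (medians 0.51, -0.50 and -0.48). Dusp4, an ERK phosphatase, went from 31.9 ± 5.61 CPM in siCONTROL to 112 ± 2.56 after siKEAP1, 12.9 ± 1.71 after siCCNF and 16.1 ± 2.59 with siKEAP1/siCCNF, and its interaction passed (-1.48, adjusted p = 1.97e-04). Etv4, an ETS factor induced by ERK, followed the same order with 24.1 ± 3.25, 56.9 ± 3.67, 8.83 ± 0.420 and 11.9 ± 0.440 CPM. Its interaction also passed (-0.81, adjusted p = 0.00116), and 9 of the 14 passed in all, 2 positive and 7 negative, against 10.6% and 10.5% of all genes. Spry1, from the same list, went the other way after siKEAP1, from 7.29 ± 0.519 to 1.77 ± 0.534 CPM (-2.05, adjusted p = 2.34e-06). The Spry1 interaction was positive (1.70, adjusted p = 4.89e-04).

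Of 25 tested genes, of 30 listed as AP-1 targets, 18 rose and 4 fell after siKEAP1 (all genes 20.4% and 20.2%), 14 and 5 after siCCNF (22.5% and 25.5%), and 14 and 6 with siKEAP1/siCCNF (20.6% and 23.6%; medians 0.90, 0.48 and 0.38). Many of these genes, such as Il6, Lif and Cxcl1, also answer to NF-κB, and the counts do not say which factor acts. Areg, an EGF receptor ligand, measured 5.67 ± 1.07 CPM in siCONTROL, 34.8 ± 3.12 after siKEAP1, 1.70 ± 0.464 after siCCNF and 2.53 ± 0.477 with siKEAP1/siCCNF. Hmga1, a chromatin protein, rose from 18.3 ± 1.24 to 75.7 ± 3.68 CPM after siKEAP1 (2.05, adjusted p = 4.60e-09). Of the 4 that fell after siKEAP1, Plau went from 78.9 ± 5.24 to 30.4 ± 2.26 CPM (-1.38, adjusted p = 2.18e-08). Tnc went from 186 ± 37.0 to 85.9 ± 8.28 CPM (-1.12, adjusted p = 5.78e-05), but rose after siCCNF to 451 ± 66.4 CPM (1.28, adjusted p = 1.33e-05). Il6 rose after siCCNF from 1.04 ± 0.294 to 7.53 ± 2.22 CPM (2.83, adjusted p = 9.81e-06). It also rose after siKEAP1 (1.95, adjusted p = 4.12e-04) and after siKEAP1/siCCNF (2.99, adjusted p = 6.99e-06). Ccnd1, which encodes cyclin D1, measured 223 ± 30.3, 454 ± 31.1, 103 ± 7.92 and 131 ± 5.50 CPM in the 4 groups in the order used for Areg. The interaction passed with a negative value for 18 of the 25 and with a positive value for 2, against 10.5% and 10.6% of all genes (median over the 25 -0.74, over all genes 0.011).

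The genes whose profile over the 12 libraries was nearest to Fosl1 and to Jun, the members with the widest spread of group means on the log2 scale (1.70 and 1.48), were sought by the root mean square difference of centred log2 CPM among 11825 genes. For Fosl1 they were Ccl7, a chemokine (0.092), Plaur, the urokinase receptor (0.109), and Spint1, a protease inhibitor (0.125). Plaur measured 33.9 ± 2.71 CPM in siCONTROL, 98.8 ± 8.08 after siKEAP1, 37.9 ± 1.79 after siCCNF and 53.0 ± 5.36 with siKEAP1/siCCNF. For Jun the nearest included Sccpdh (0.098) and Ssr1 (0.098), and Ssr1 measured 421 ± 0.797, 312 ± 6.81, 152 ± 5.41 and 155 ± 4.91 CPM in the same order. Within the 10 genes the closest pair was Fosl2 and Ier3 (0.239).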

How the data were processed

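RNA of 12 C2C12 libraries in 4 siRNA groups was analysed, with groups and replicate numbers taken from the sample titles. The deposited table gives for each library raw read counts per gene and FPKM values, both made by the authors' service provider. The submitters' processing notes name HISAT2 and GRCm39, but the coordinates in the table are those of GRCm38, and the counter, its strand setting and its handling of shared reads are not given in the sources used here. The group means, log2 fold changes and p-values of the authors' own comparisons, also deposited, were not used. The paper gives another serum content than the labels and does not say which Ccnf siRNA was used for sequencing.

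The count model was fitted in edgeR 4.0.16 (R 4.3.3): filterByExpr, TMM scaling, 1 quasi-likelihood fit of 4 group means to all 12 libraries, and Benjamini-Hochberg adjustment over the 15122 genes tested. A gene was called at an adjusted p under 0.05. Intervals are 95% intervals from the moderated t distribution of the fit. CPM values use TMM-scaled library sizes and are given per library or as mean ± SD. The code was tested on simulated data. Named genes were the 10 members and, per list and comparison with siCONTROL, up to 2 rises and 2 falls at an adjusted p under 0.05, over 2-fold, without overlapping libraries and with mean log2 CPM not below 1. Of these the text gives a selection. The 3 genes nearest in profile to Fosl1 and to Jun were also sought, and 1 of them is not reported here. The members and lists were chosen with earlier results of these data known, and the lists were written from common usage. Maff, Dusp5, Phlda1 and Srf each stood in more than 1 list, so their counts are not separate between lists. Ctgf is listed under its symbol in the table.

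Alternatives were DESeq2 1.42.0, total library sizes, other count filters (no filter, or at least 10 counts in every library), a replicate block, limma 3.58.1 on log2(FPKM + 1) or log2(FPKM + 0.1), removal of a gene length trend by splines with 5 degrees of freedom, a 2-fold threshold, the compared libraries only, and each library left out in turn. Leaving out both libraries with a length trend was chosen after seeing the data. Same-numbered libraries deviated together with correlations from -0.268 to 0.204, above 0.1 in 4 of 18 pairs, so the numbers were not taken to pair the libraries.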

Additional observations from a re-analysis of the deposited data

Results flagged for a closer look

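The effect of siKEAP1 differed between control and CCNF-depleted cells for 4 of the 10 genes by the interaction term of the edgeR fit. The log2 interaction was -1.14 for Fosl1, -0.74 for Fosl2, 0.50 for Jun and 0.94 for Egr1. In each of the 4 the effect was nearer 0 in CCNF-depleted cells. Leaving out 1 library at a time gave -1.23 to -1.07, -0.81 to -0.60, 0.37 to 0.57 and 0.90 to 1.00, and only the Jun call was lost, without siKEAP1 replicate 1 or siCCNF replicate 1. Keap1 was depleted less in the double depletion (27.5% of siCONTROL against 14.4%), and the part of this difference was not tested.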

How the results depend on the processing

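Counts of members in the comparisons with siCONTROL kept within 1.5 times under every alternative except the 2-fold threshold. With it, 1 rose and 1 fell after siKEAP1, 0 and 1 after siCCNF, 1 and 1 after siKEAP1/siCCNF, 1 and 0 against siKEAP1, and 0 rose against siCCNF. The interaction then had 0 positive and 1 negative. Of all genes, 11.5%, 11.4% and 10.3% passed this threshold in either direction in the 3 comparisons with siCONTROL. For the remaining 2-fold counts, and for the counts given next, no share of all genes was taken. They describe the members only. Against siKEAP1, 5 were higher with the length trend removed and 4 with both length-trend libraries left out (chosen after seeing the data). The latter setting also gave 2 higher and 1 lower against siCCNF, and 4 negative interactions, adding Jund (-0.34, adjusted p = 0.0105) and Ier3 (-0.43, adjusted p = 0.0286). With 1 library left out, positive interactions numbered 1 to 3. The Fos interaction passed under DESeq2 (adjusted p = 0.0291), without a filter (0.0144), under limma with a pseudocount of 0.1 (0.0492), with the length trend removed (0.0301) and with both libraries left out (0.0331). The causes were not tested.

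Direction reversed only for differences that did not pass as reported. For Jund after siKEAP1 it was 0.00410 under DESeq2, 0.01 with total library sizes and with at least 10 counts, 1.76e-04 with the replicate block, 0.00694 and 0.00712 under limma, 0.00227 with the compared libraries only and 0.07 with both libraries left out. That last setting gave 0.02 for Junb after siCCNF, -0.00438 after siKEAP1/siCCNF and -0.02 against siCCNF, and -0.09 for Atf3 after siKEAP1, and Junb after siKEAP1/siCCNF was -0.00188 with the length trend removed. With 1 library left out the ranges were -0.06 to 0.07 for Jund and -0.16 to 0.50 for Atf3 after siKEAP1, -0.07 to 0.02 for Junb after siCCNF, -0.05 to 0.06 for Junb after siKEAP1/siCCNF, and -0.54 to 0.11 for the Atf3 interaction. Against siCCNF they were -0.06 to 0.23 for Fos, -0.18 to 0.23 for Fosb, -0.03 to 0.11 for Jun, -0.02 to 0.08 for Junb and -0.18 to 0.16 for Atf3, and for Fosl2 against siKEAP1 -0.01 to 0.13.

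The replicate block changed no call of the 10 genes. It moved the genes called from 6133 to 5953 after siKEAP1, from 7247 to 7081 after siCCNF, from 785 to 642 against siCCNF and from 3181 to 2964 for the interaction, and 6 of 12 libraries correlated best with their own number. The interaction needs all 4 groups, so a fit of the compared libraries only was not run for it. For the 5 gene lists, DESeq2 and total library sizes were tried in the 3 comparisons with siCONTROL, and their counts stayed within 1.5 times under these 2 settings. The 3 libraries per group, with 24 to 109 counts for Atf3 and 25 to 106 for Fosb, limit what could be seen for those genes.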
